A study of Homo sapiens with 24 samples.

Results

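The circular RNA cATF6 was overexpressed in HCC827 cells that had acquired resistance to a drug and in HCC827 drug-tolerant persister cells, and each gene was asked whether it answered cATF6 differently in the 2 states. HCC827 is an established human lung adenocarcinoma cell line that depends on a mutant, constantly active EGFR. The comparison uses 12 of the 24 samples of the series, in 4 groups of 3 libraries: resistant cells carrying the cATF6 construct (Resistant OC), resistant cells carrying the empty vector (Resistant EV), persister cells carrying the cATF6 construct (DTP OC) and persister cells carrying the empty vector (DTP EV). The labels give the EV groups the genotype WT and the OC groups cATF6 overexpression, and all 4 groups were grown in DMEM with fetal bovine serum. The vector, the number of clones, how construct-bearing cells were selected, and whether drug was present at harvest are not given in the sources used here. RNA-seq libraries were made from ribosomal RNA-depleted total RNA with a strand-specific kit. The quantity tested was the difference of the cATF6 responses, on the log2 scale: Resistant OC minus Resistant EV, less DTP OC minus DTP EV. A positive value means that the response to cATF6 was higher in resistant cells than in persister cells, whichever way each moved. Of 19932 genes in the table, 12984 had at least 10 counts in at least 3 libraries of each state and were tested.

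Circular RNAs arise when a downstream splice site is joined back to an upstream one, which leaves a closed loop without ends. ATF6 is a transcription factor held in the membrane of the endoplasmic reticulum (ER). When unfolded protein builds up it moves to the Golgi, is cut there, and its released part switches on ER chaperone genes, in parallel with the XBP1 and PERK-ATF4 arms of the unfolded protein response. Persister cells are known for outliving a targeted drug in a slowly dividing, reversible state, while cells with acquired resistance grow again under the drug. The division genes of these libraries ran the other way: the summed scaled counts of the 34 genes of the G2 and mitosis list were 14900 to 15100 in Resistant EV, against 42100 to 78800 in DTP EV, and the names of the states here are those of the labels.

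The libraries held between 30075330 and 45068508 counts. The first principal component carried 83.3% of the variance and separated the 6 resistant from the 6 persister libraries, which were made in 2 different library series. State and library series therefore cannot be told apart where the states are compared, the difference of responses included. Each cATF6 response by itself lies within 1 series. The library DTP EV 1 stood closer to the cATF6 libraries of its state than to its own group: its mean correlation was 0.984 with DTP OC and 0.975 with the other DTP EV libraries. Its counts differed from those of DTP EV 2 and 3 by a chi-square of 56.7 and 56 per degree of freedom, against 8.31 to 17.2 for the other pairs of libraries within a group. ATF6 in this library was at the level of its own group, as given below. Results are therefore given with and without DTP EV 1. The labels do not say whether the 3 libraries of a group came from separate cultures, so the p-values measure the spread between these libraries, which may be technical.

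Epithelial markers were abundant in all 12 libraries. The summed scaled counts of 6 of them (KRT7, KRT8, KRT18, KRT19, EPCAM and CDH1) lay between 835000 and 931000 in Resistant OC, 817000 and 838000 in Resistant EV, 206000 and 228000 in DTP OC, and 228000 and 251000 in DTP EV. The leukocyte genes PTPRC, CD3E and LYZ were at or near 0 in all groups. The whole leukocyte list summed to 53700 to 58500 in Resistant OC, 42400 to 44200 in Resistant EV, 1910 to 2460 in DTP OC and 998 to 2010 in DTP EV. Nearly all of that was CD68, a lysosomal protein abundant in macrophages, with scaled counts of 53299, 56025 and 57993 in Resistant OC, against 43764, 41959 and 42392 in Resistant EV, and 2325, 1887 and 2442 in DTP OC, against 1994, 972 and 1261 in DTP EV. Its difference in response was -0.33 (adjusted p = 0.391), and the part of such genes in the results was not tested. Of 7 fibroblast markers, 3 passed the filter. Their list summed to 4430 to 5170 in Resistant OC, 11200 to 11600 in Resistant EV, 1480 to 1670 in DTP OC and 1320 to 1450 in DTP EV, and most of it in resistant cells was PDGFRB, a platelet-derived growth factor receptor. Of the collagens in that list, COL1A1 differed in response by 0.74 (SE 0.17, adjusted p = 0.00721). The other 2 tested fibroblast markers had negative differences that were not called, and the median over the 3 was -1.16.

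The responses to cATF6 in the 2 states shared little. At a Benjamini-Hochberg adjusted p of 0.05 in limma, 3509 genes (27.0% of those tested) differed in response, 1763 of them (13.6%) higher and 1746 (13.4%) lower in resistant cells. In resistant cells alone cATF6 changed 4407 genes (33.9%), 2051 higher (15.8%) and 2356 lower (18.1%). In persister cells alone it changed 1775 (13.7%), 808 higher (6.22%) and 967 lower (7.45%). Responses of at least 2-fold were called for 679 genes in resistant and 174 in persister cells, and differences of at least 2-fold for 913. Across the 12984 genes, the responses in the 2 states had a correlation of -0.07, given as a description of genes that are not independent. Without DTP EV 1 the difference was called for 4506 of 12932 genes (34.8%; 17.5% higher and 17.4% lower), and 3389 of the 3509 calls were made in both fits, all with the same sign. In that fit the resistant response was called for 5281 genes (40.8%; 20.2% higher and 20.7% lower).

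The count for persister cells depended on single libraries. It was 3657 (28.3%; 14.2% higher and 14.1% lower) without DTP EV 1. Leaving out DTP EV 3 gave 614, DTP EV 2 gave 742, DTP OC 3 gave 416, DTP OC 1 gave 916 and DTP OC 2 gave 1136. The text therefore counts genes by the difference of responses, and gives the persister response as a value or with such a range.

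Genes that moved in opposite directions outnumbered those that moved together. Of 837 genes called in both states, 348 moved the same way (140 higher and 208 lower in both) and 489 moved in opposite ways. Of the opposite ones, 217 rose in resistant and fell in persister cells, and 272 fell in resistant and rose in persister cells. For most of the 3509 genes, 2061 of them, the resistant response was the called one of the pair, for 561 the persister response, and for 347 neither. The count of opposite genes was 1058 without DTP EV 1. Leaving out DTP OC 3 gave 121, DTP EV 3 gave 191, DTP EV 2 gave 237, DTP OC 1 gave 292 and DTP OC 2 gave 295. In each of those fits it was larger than the count of genes moving the same way.

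**Figure D1:**
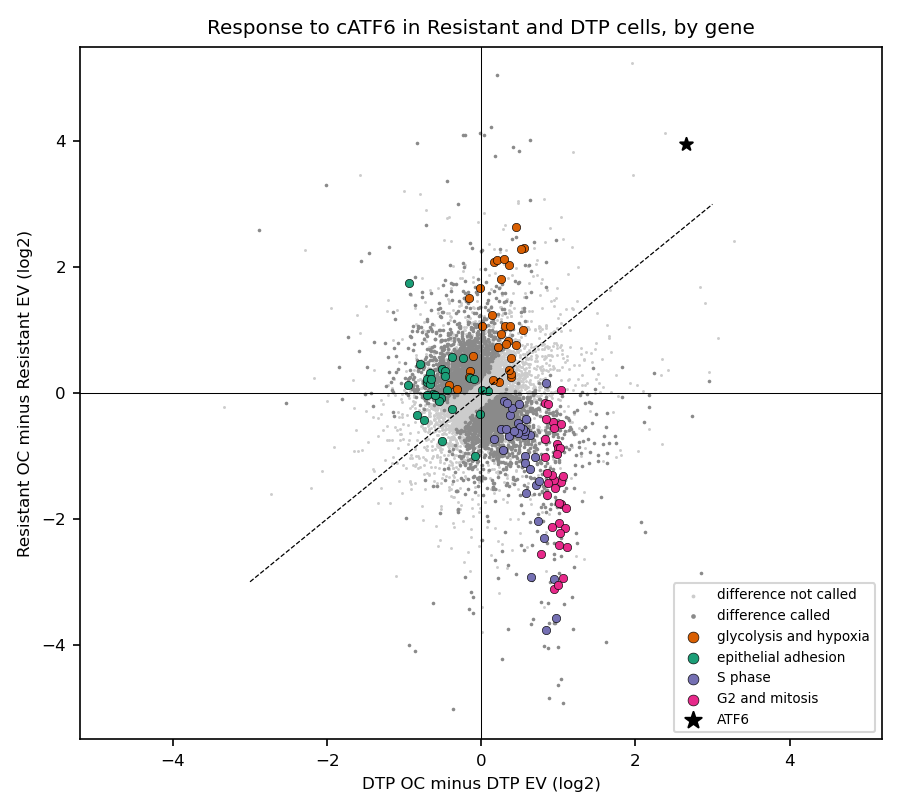
Response of each of 12984 genes to cATF6 in resistant cells (y axis, Resistant OC minus Resistant EV, log2) against its response in persister cells (x axis, DTP OC minus DTP EV, log2), with members of selected gene lists coloured and ATF6 as a star; 4 genes lie outside the axes. Points on the dashed line answered equally in both states. Most of the cell cycle genes lie at the lower right, with negative values in resistant and positive values in persister cells.

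ATF6, the host gene of the circular RNA, was raised by the construct in both states. Its scaled counts were 30152, 31948 and 31353 in Resistant OC, against 2207, 1969 and 1849 in Resistant EV, and 17957, 21065 and 21019.9 in DTP OC, against 3176, 3162 and 3184 in DTP EV. Every OC library lay above every EV library of its state, and DTP EV 1 was level with DTP EV 2 and 3. The rise was 15.5-fold in resistant and 6.29-fold in persister cells, and the difference of responses was 1.31 (SE 0.10, adjusted p = 4.98e-06). It ranged from 1.23 to 1.38 when any single library was left out. A gene count does not separate the circular from the linear transcripts of ATF6.

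Most genes of G2 and mitosis fell with cATF6 in resistant cells and rose in persister cells. All 34 tested genes of this list differed in response, all lower in resistant cells, with a median difference of -2.35 against -0.01 over all genes tested. Of all genes tested, 13.4% were called lower. In resistant cells 27 of the 34 fell and none rose, with a median response of -1.39. In persister cells 33 rose and none fell, with a median of 0.98; without DTP EV 1 the count was again 33, but leaving out DTP OC 2 gave 21, DTP OC 1 gave 18, DTP EV 2 gave 13, DTP EV 3 gave 11 and DTP OC 3 gave 9. Differences ran from -0.98 for PLK1, a mitotic kinase whose call held only without Resistant EV 1, DTP OC 2 or DTP EV 1 among the fits that leave out a library, to -4.06 for MKI67. In bulk RNA, fewer dividing cells and less RNA per dividing cell cannot be told apart.

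MKI67 encodes Ki-67, a coat of mitotic chromosomes used as a marker of dividing cells. Its scaled counts were 131, 117 and 93.3 in Resistant OC, against 954, 1032 and 980.5 in Resistant EV, and 6388, 6710.2 and 7505 in DTP OC, against 5129, 2849 and 3093 in DTP EV. Resistant OC lay wholly below Resistant EV, and DTP OC wholly above DTP EV, with DTP EV 1 the nearest to the DTP OC libraries. MKI67 was 8.70-fold lower in Resistant OC and 1.92-fold higher in DTP OC, a difference of -4.06 (SE 0.26, adjusted p = 1.43e-06). DLGAP5, a spindle protein, had 20.5, 13.8 and 21.8 in Resistant OC, against 146, 149 and 148 in Resistant EV, and 1574, 1773 and 2034 in DTP OC, against 1228, 729.7 and 693 in DTP EV. The pattern was that of MKI67, with a difference of -4.0 (SE 0.31, adjusted p = 4.29e-06). TTK, the kinase at the head of the spindle checkpoint, had 86.9, 63.2 and 77.6 in Resistant OC, against 383, 278 and 302 in Resistant EV, and 1248, 1325 and 1493 in DTP OC, against 889, 576 and 593 in DTP EV. Its groups did not overlap within either state, and the difference was -3.07 (SE 0.26, adjusted p = 9.79e-06). CDK1, the kinase that drives entry into mitosis, differed by -4.04 (SE 0.41, adjusted p = 2.62e-05), and FOXM1, a transcription factor of mitotic genes, by -2.49 (SE 0.33, adjusted p = 0.000168). For some members the persister response alone was called: PLK1 had responses of 0.052 in resistant and 1.04 in persister cells, AURKA, another mitotic kinase, -0.17 and 0.86, and TPX2, its activator, -0.16 and 0.83.

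The promoters of MKI67 and DLGAP5 are shown because mitotic genes are known to share short elements there, the cell cycle homology region (CHR, TTTGAA) and the CCAAT box. Each line gives the 200 bases before the transcription start, from RefSeq on GRCh38.p14, read on the gene's own strand. Capitals mark CHR and CCAAT matches on either strand (TTCAAA and ATTGG are the reverse complements).
MKI67: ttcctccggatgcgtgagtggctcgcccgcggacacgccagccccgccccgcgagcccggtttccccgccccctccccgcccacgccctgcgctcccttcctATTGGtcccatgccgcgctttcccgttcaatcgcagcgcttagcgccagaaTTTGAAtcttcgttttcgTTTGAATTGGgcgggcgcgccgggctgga
DLGAP5: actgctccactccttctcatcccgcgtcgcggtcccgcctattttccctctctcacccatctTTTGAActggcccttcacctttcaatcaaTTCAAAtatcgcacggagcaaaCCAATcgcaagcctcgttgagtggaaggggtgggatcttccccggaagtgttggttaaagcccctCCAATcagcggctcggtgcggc
MKI67 lies on the minus strand at chr10:128126424-128126623 and DLGAP5 on the minus strand at chr14:55191586-55191785. The second CHR of MKI67 shares its last base with a CCAAT box. Within 250 bases before the start, TTTGAA was found in 16 of the 28 promoters of this list that could be matched (57.1%), against 13.6% of 27305 promoters, and CCAAT in 23 (82.1%), against 33%. These matches describe the letters and were searched on both strands.

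S phase genes went the same way with smaller differences. Of 34 tested, 31 (91.2%) were lower in response in resistant cells and none higher, against 13.4% and 13.6% of all genes. The median difference was -1.14. In resistant cells 28 fell, and in persister cells 19 rose; the persister count was 31 without DTP EV 1, and leaving out DTP OC 2 gave 8, DTP OC 1 gave 6, DTP EV 2 gave 3, DTP EV 3 gave 2 and DTP OC 3 gave 1. RRM2, the regulated subunit of the enzyme that makes deoxyribonucleotides, had scaled counts of 124, 90.8 and 58.4 in Resistant OC, against 1164, 1133 and 1282 in Resistant EV, and 3552, 3622 and 4027 in DTP OC, against 3030.0, 1797 and 1636 in DTP EV. It was 13.6-fold lower in Resistant OC, and its difference was -4.61 (SE 0.34, adjusted p = 3.16e-06). TYMS, which makes thymidylate, had 19.4, 24.1 and 27.9 in Resistant OC, against 299, 226 and 368 in Resistant EV, and 2548, 2349 and 2981 in DTP OC, against 2229, 1098 and 972 in DTP EV. Its difference was -4.54 (SE 0.38, adjusted p = 8.84e-06), and its Resistant OC values were the lowest of the 4 groups. CDC45, part of the replicative helicase, had 14.3, 12.6 and 11.3 in Resistant OC, against 115, 77.9 and 123 in Resistant EV, and 638, 584 and 707 in DTP OC, against 540.5, 386 and 329.9 in DTP EV, a difference of -3.57 (SE 0.33, adjusted p = 1.43e-05). The 6 subunits of the MCM helicase had differences between -1.04 (MCM7) and -1.67 (MCM5), all called. Among licensing and start factors, CDC6 differed by -2.15 by the test, and CDT1 had -0.67 (adjusted p = 0.0999). CCNE1, a G1 cyclin, at -0.66 (adjusted p = 0.0614), and POLD1, a DNA polymerase subunit, at -0.48 (adjusted p = 0.057), were not called, as CDT1 was not.

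**Figure D2:**
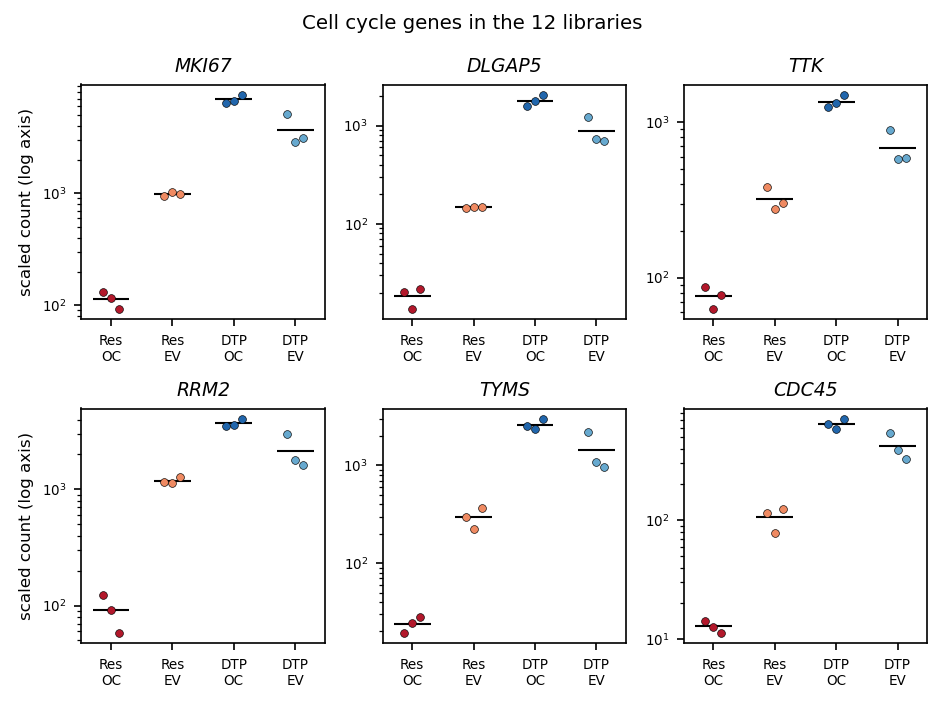
Scaled counts (log axis) of 3 mitotic genes (MKI67, DLGAP5, TTK) and 3 S phase genes (RRM2, TYMS, CDC45) in the 12 libraries, with 1 point per library and a bar at the group mean. In each gene Resistant OC lies below Resistant EV, and the DTP OC mean lies above the DTP EV mean.

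Other regulators of the cycle were mixed. Of 22 tested p53 targets and cell cycle inhibitors, 4 were lower and 1 was higher in response in resistant cells (4 and 4 without DTP EV 1). That share of 22.7% called is near the 27.0% of all genes. CDKN2C, an inhibitor of the G1 kinases, differed by -1.73 (SE 0.34, adjusted p = 0.0024), FAS, a death receptor, by -1.24 (SE 0.14, adjusted p = 4.61e-05) and ZMAT3, a p53-induced RNA-binding protein, by -1.03 (SE 0.11, adjusted p = 5.23e-05). CDKN1B, the inhibitor p27, was the one higher, with 3639.7 ± 94.5 in Resistant OC, against 2334 ± 120.4 in Resistant EV, and 2931 ± 124 in DTP OC, against 3023 ± 308 in DTP EV (mean ± SD of scaled counts, n = 3 each) and a difference of 0.68 (SE 0.11, adjusted p = 0.000528). CDKN1A, the p53-induced inhibitor p21, had a difference of 0.12 (adjusted p = 0.73) with all libraries and 0.37 (adjusted p = 0.0397) without DTP EV 1.

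Most glycolysis and hypoxia genes rose with cATF6 in resistant cells, and many had a higher response there than in persister cells. Of 31 tested, 21 (67.7%) were higher in response in resistant cells and none lower, against 13.6% and 13.4% of all genes. The median difference was 0.69. Without DTP EV 1 the counts were 23 higher and 2 lower, the 2 being ENO1, an enolase, and PKM, a pyruvate kinase. In resistant cells 24 rose and none fell, with a median response of 0.94. In persister cells the median was 0.26, and 2 genes fell, PFKFB3, a regulator of glycolysis, and VEGFA, the angiogenic growth factor (PFKFB3 alone without DTP OC 3). The number that rose in persister cells was 11, and 19 without DTP EV 1. Leaving out DTP OC 1 gave 5, DTP EV 2 gave 3, DTP EV 3 gave 1 and DTP OC 3 gave 0.

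EGLN3, an oxygen-sensing prolyl hydroxylase that is itself induced in hypoxia, had scaled counts of 3185, 3503 and 3672 in Resistant OC, against 790.0, 847 and 798 in Resistant EV, and 378, 352 and 341 in DTP OC, against 354, 303 and 299.6 in DTP EV. The resistant groups were far apart, the persister groups were close. It was 4.25-fold higher in Resistant OC and 1.12-fold higher in DTP OC, a difference of 1.92 (SE 0.13, adjusted p = 2.75e-06). P4HA1, which hydroxylates collagen, had 4563, 4037 and 4228 in Resistant OC, against 1115, 998 and 1013 in Resistant EV, and 607, 693 and 721 in DTP OC, against 539, 528 and 509 in DTP EV. Its difference was 1.68 (SE 0.12, adjusted p = 3.16e-06). ENO2, the neuronal enolase, had 1485, 1543 and 1574 in Resistant OC, against 443, 484 and 392 in Resistant EV, and 1703, 1640.1 and 1779 in DTP OC, against 1552, 1405 and 1335 in DTP EV. Its groups did not overlap in resistant cells, and the difference was 1.55 (SE 0.13, adjusted p = 6.04e-06). A larger difference was seen for CA12, a carbonic anhydrase of the cell surface, at 2.20 (SE 0.57, adjusted p = 0.0126). Similar ones were seen for ALDOC, an aldolase, at 1.90 (SE 0.20, adjusted p = 3.43e-05) and NDRG1, a hypoxia-induced gene, at 1.84 (SE 0.21, adjusted p = 5.31e-05). The glucose transporter SLC2A3 differed by 1.77 (SE 0.47, adjusted p = 0.0133) and PDK1, a kinase of pyruvate dehydrogenase, by 1.75 (SE 0.21, adjusted p = 9.64e-05). Along the glycolytic path, the difference was called for GPI, PFKL, PFKP, ALDOA, TPI1 and PGK1, between 0.46 (GPI) and 1.10 (TPI1). The calls of GPI, PFKP and PGK1 were each lost without Resistant OC 2, Resistant OC 3, Resistant EV 3 or DTP OC 2, that of PGK1 also without Resistant EV 1, Resistant EV 2 or DTP OC 1, that of GPI without Resistant EV 2 and that of PFKP without DTP OC 3. The difference was not called for HK1, HK2, PFKM, GAPDH, PGAM1, ENO1, PKM or LDHA, whose differences lay between -0.14 (ENO1) and 0.46 (LDHA, adjusted p = 0.0503). VEGFA had responses of 0.059 in resistant and -0.32 in persister cells.

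The promoter of ENO2 is shown for the core of the hypoxia response element, ACGTG, in capitals. It covers the 200 bases before the start, plus strand, chr12:6914380-6914579, RefSeq on GRCh38.p14.
ENO2: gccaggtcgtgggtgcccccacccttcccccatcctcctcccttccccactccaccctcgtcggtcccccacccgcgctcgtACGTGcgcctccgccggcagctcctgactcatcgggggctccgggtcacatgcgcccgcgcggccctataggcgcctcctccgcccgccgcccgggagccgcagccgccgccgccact
This core was found in 12 of 28 matched promoters of the list (42.9%), against 18.7% of all promoters and 23.2% of those of the genes tested. Its share was 50% in the ATF6 and XBP1 list, 43.8% in the YAP and TEAD list and 39.3% in the G2 and mitosis list.

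Many genes of cholesterol synthesis had a higher response to cATF6 in resistant cells. Of 23 tested, 13 (56.5%) were higher in response in resistant cells and none lower, against 13.6% and 13.4% of all genes. There was 1 lower without DTP OC 1, DTP EV 1 or DTP EV 2. The median difference was 0.50. In resistant cells 13 rose and 2 fell (1 without Resistant OC 1, Resistant EV 1 or Resistant EV 3), PMVK and HMGCS1. In persister cells none rose and 1 fell, a call lost when any library other than DTP EV 1 was left out. The median response was 0.49 in resistant and -0.05 in persister cells. DHCR7, which makes cholesterol from its last precursor, had scaled counts of 8829, 9225 and 9171 in Resistant OC, against 4941, 4992 and 4903 in Resistant EV, and 3756, 4075 and 4247 in DTP OC, against 4385, 4365 and 3970.3 in DTP EV. Resistant OC lay above Resistant EV without overlap, and the persister groups overlapped. Its difference was 0.95 (SE 0.083, adjusted p = 1.14e-05). SQLE, a rate-limiting enzyme, was not called and differed by -0.12 (adjusted p = 0.516). SREBF2, the transcription factor of the pathway, differed by 0.28 (adjusted p = 0.0102).

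Fatty acid metabolism genes were in part higher in response in resistant cells. In resistant cells 12 of the 27 tested rose and 5 fell, and 3 fell when any resistant library other than Resistant EV 2, or DTP OC 3, was left out. Of the 27, 12 were higher in response in resistant cells (44.4%, against 13.6% of all genes). The 4 lower were 14.8% of the list, near the 13.4% of all genes, and the median difference was 0.38. The lower count was 2 without Resistant OC 3, Resistant EV 3, DTP OC 3 or DTP EV 3. FADS1, a fatty acid desaturase, had scaled counts of 4634, 4263 and 4845 in Resistant OC, against 1438, 1383 and 1470.1 in Resistant EV, and 3162, 3361 and 3396 in DTP OC, against 3122, 2781 and 2561 in DTP EV. The resistant groups lay wholly apart, and its difference was 1.44 (SE 0.11, adjusted p = 3.16e-06). FASN, the fatty acid synthase, had 27250.2 ± 1468 in Resistant OC, against 12795 ± 622 in Resistant EV, and 10845 ± 306 in DTP OC, against 10813 ± 913 in DTP EV (mean ± SD, n = 3 each), a difference of 1.08 (SE 0.10, adjusted p = 1.14e-05). SREBF1, the transcription factor of lipid synthesis, had responses of 0.74 in resistant and -0.48 in persister cells, a difference of 1.23 (SE 0.12, adjusted p = 1.83e-05). SCD, the main stearoyl desaturase, differed by 1.27 (SE 0.15, adjusted p = 8.78e-05). The lower ones were DGAT2, which makes triglyceride (-1.10), ELOVL6, which lengthens fatty acids (-0.89), ACACB, a mitochondrial acetyl-CoA carboxylase (-0.62), and HADHB, a beta-oxidation enzyme (-0.29). The ELOVL6 call was lost without Resistant OC 3, Resistant EV 2 or 3, DTP OC 2 or 3, or DTP EV 2 or 3, and the ACACB call without Resistant OC 3, Resistant EV 3, DTP OC 3 or DTP EV 3.

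Targets of ATF6 and XBP1 rose in resistant cells only in part. Of 27 tested, 12 (44.4%) were higher in response in resistant cells and none lower, against 13.6% and 13.4% of all genes. The median difference was 0.29. Without DTP EV 1, 12 were higher and 2 lower, the chaperone HSP90B1 (-0.24, adjusted p = 0.0316) and the disulfide isomerase PDIA6 (-0.29, adjusted p = 0.00344). In resistant cells 16 rose and 1 fell (2 fell without DTP EV 1), where 15.8% of all genes rose and 18.1% fell. In persister cells none rose and 2 fell (4 rose and 5 fell without DTP EV 1, and at most 1 fell without any other library). The median response was 0.22 in resistant and -0.08 in persister cells. HSPA5, the main ER chaperone, also called BiP, had scaled counts of 50389, 49651 and 50805 in Resistant OC, against 29539, 28981 and 29207 in Resistant EV, and 23717, 23296 and 23805 in DTP OC, against 26299, 25307 and 26022 in DTP EV. Resistant OC lay wholly above Resistant EV, and DTP OC slightly below DTP EV. Its rise was 1.72-fold in resistant cells, its persister response was -0.13 (adjusted p = 0.081), and its difference was 0.91 (SE 0.066, adjusted p = 3.16e-06). MANF, a secreted ER stress protein, differed by 0.79 (SE 0.16, adjusted p = 0.00266), EDEM1, which sends misfolded glycoproteins to degradation, by 0.66 (SE 0.12, adjusted p = 0.0012), and SYVN1, the ubiquitin ligase of that path, by 0.63 (SE 0.10, adjusted p = 0.000503). The chaperones CALR and HYOU1 differed by 0.56 and 0.56, and PDIA4, a disulfide isomerase, by 0.47 (SE 0.078, adjusted p = 0.000866). Other central members were not called: XBP1 itself at -0.013 (adjusted p = 0.918), HERPUD1, an ER degradation factor, at 0.064 (adjusted p = 0.564), DNAJB9, a co-chaperone, at 0.22 (adjusted p = 0.322), and SEL1L, the partner of SYVN1, at -0.068 (adjusted p = 0.774).

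The HSPA5 promoter is shown for the ER stress response element (CCAAT, any 9 bases, then CCACG), the site that ATF6 is known to bind, in capitals. It covers the 200 bases before the start, minus strand, chr9:125241344-125241543, RefSeq on GRCh38.p14.
HSPA5: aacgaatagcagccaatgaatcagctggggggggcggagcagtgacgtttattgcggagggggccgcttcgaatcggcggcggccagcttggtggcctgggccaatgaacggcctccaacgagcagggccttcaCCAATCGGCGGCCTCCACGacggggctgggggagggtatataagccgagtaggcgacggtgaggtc
The element, which contains a CCAAT box, was found on either strand in 6 of 24 matched promoters of the list (25%), against 0.0806% of all promoters.

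Targets of the PERK-ATF4 arm were in part higher in response in resistant cells. Of 30 tested, 12 were higher (40%, against 13.6% of all genes). The 4 lower were 13.3% of the list, near the 13.4% of all genes, and the median difference was 0.22. Without DTP EV 1 the counts were 14 and 8. DDIT4, an inhibitor of mTOR signalling also induced in hypoxia, had scaled counts of 5564, 5674 and 6246 in Resistant OC, against 1421, 1519 and 1507 in Resistant EV, and 3879, 3279 and 3263 in DTP OC, against 2814, 3595 and 3689 in DTP EV. It was 3.93-fold higher in Resistant OC, while the persister groups overlapped, and its difference was 1.92 (SE 0.14, adjusted p = 3.16e-06). ADM2, a secreted peptide, differed by 1.58 (SE 0.21, adjusted p = 0.000178), TRIB3, a pseudokinase that restrains ATF4, by 1.00 (SE 0.11, adjusted p = 4.3e-05), SESN2, a leucine sensor, by 1.01 (SE 0.19, adjusted p = 0.0021) and DDIT3, the transcription factor CHOP, by 0.75 (SE 0.15, adjusted p = 0.00272). ATF4 itself differed by 0.31 (SE 0.084, adjusted p = 0.0145). The 4 lower were PSAT1 and PHGDH, which make serine, ASNS, which makes asparagine, and ATF3, a stress transcription factor. PSAT1 had 1619 ± 40.4 in Resistant OC, against 2565 ± 166 in Resistant EV, and 7252 ± 261 in DTP OC, against 6119 ± 712 in DTP EV (mean ± SD, n = 3 each), a difference of -0.91 (SE 0.11, adjusted p = 0.0001).

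**Figure D3:**
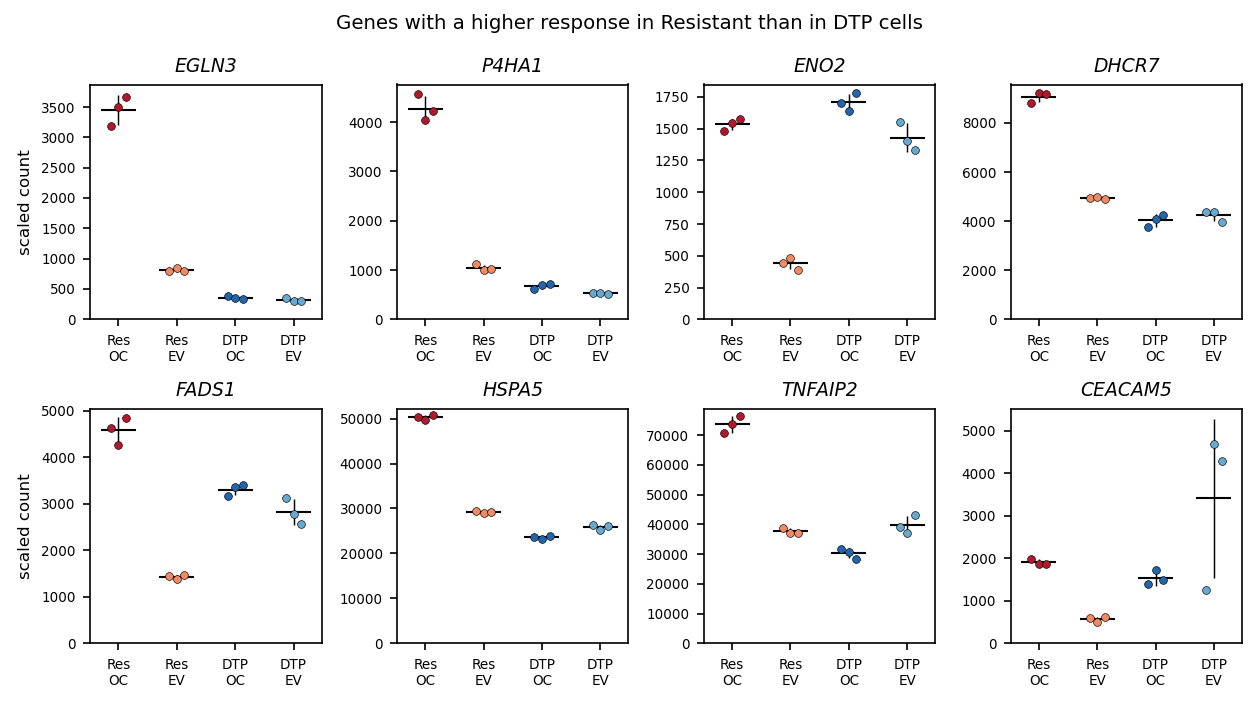
Scaled counts of 8 genes of the glycolysis and hypoxia, lipid, ER, inflammatory and epithelial lists in each library (points), with the group mean and SD, for Resistant OC, Resistant EV, DTP OC and DTP EV. Resistant OC stands above Resistant EV in all 8, and the DTP OC mean is below the DTP EV mean for DHCR7, HSPA5, TNFAIP2 and CEACAM5.

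Of 47 calcium handling genes tested, 9 were higher (19.1%) and 7 lower (14.9%) in response in resistant cells, near the 13.6% and 13.4% of all genes, with a median difference of -0.06; the lower count was 4 without Resistant EV 1. ATP2A2, the pump SERCA2 that fills the ER with calcium, had scaled counts of 13801, 12297 and 13143 in Resistant OC, against 10328, 10162 and 9565 in Resistant EV, and 13231, 14152 and 13564 in DTP OC, against 15298, 15247 and 13669 in DTP EV. It rose by 0.38 on the log2 scale in resistant cells, against -0.11 (adjusted p = 0.278) in persister cells, and its difference was 0.49 (SE 0.089, adjusted p = 0.00137). The release channels of the ER went different ways: ITPR3 differed by 0.63 (SE 0.089, adjusted p = 0.00027), ITPR2 by -1.05 (SE 0.21, adjusted p = 0.00315), and ITPR1 by -0.47 (SE 0.29, adjusted p = 0.261), which was not called. Among exchangers and plasma membrane pumps, SLC8A1 differed by -0.91, SLC8B1, the mitochondrial sodium-calcium exchanger, by 0.55 and ATP2B1 by -0.71, all called, although the SLC8A1 call was lost when any of 5 libraries was left out (Resistant OC 2, Resistant EV 1, DTP OC 2, DTP OC 3 or DTP EV 2). NFAT factors, which calcineurin sends to the nucleus, were higher: NFATC1 by 1.15 (SE 0.28, adjusted p = 0.0095), NFATC2 by 0.63 (SE 0.17, adjusted p = 0.0159) and NFATC4 by 1.41 (SE 0.22, adjusted p = 0.000507). NFATC3 was at -0.17 (adjusted p = 0.217).

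Many NF-kB targets and inflammatory genes were higher in response in resistant cells, with CCL5 going the other way. Of 31 tested of a list of 39, 14 were higher (45.2%, against 13.6% of all genes) and 3 lower (9.68%, against 13.4%). The median difference was 0.65. In resistant cells 15 rose and 2 fell, with a median of 0.46, and the median in persister cells was -0.09. TNFAIP2, a cytokine-induced gene, had scaled counts of 70678, 73628 and 76589 in Resistant OC, against 38803, 37219 and 37084 in Resistant EV, and 31728, 30713 and 28522 in DTP OC, against 39056, 37259 and 43101 in DTP EV. It rose in resistant cells, with no overlap of the groups, and the DTP OC values all lay below those of DTP EV. Its difference was 1.36 (SE 0.10, adjusted p = 2.75e-06). TNFAIP3, the feedback inhibitor A20, had 3214 ± 33.8 in Resistant OC, against 1923 ± 47.4 in Resistant EV, and 4107 ± 264 in DTP OC, against 4205 ± 79.5 in DTP EV (mean ± SD, n = 3 each), a difference of 0.78 (SE 0.08, adjusted p = 3e-05). LIF, a cytokine of the IL-6 family, differed by 1.35 (SE 0.14, adjusted p = 3.39e-05), the chemokines CXCL8 and CXCL3 by 0.90 (SE 0.21, adjusted p = 0.00749) and 1.61 (SE 0.39, adjusted p = 0.00874), and ZC3H12A, which degrades cytokine messengers, by 1.06 (SE 0.12, adjusted p = 5.99e-05). CCL5, a chemokine for T cells, had 1016, 1031 and 1192 in Resistant OC, against 2008, 2154 and 2263 in Resistant EV, and 45.8, 42.0 and 35.6 in DTP OC, against 15.3, 18.1 and 17.3 in DTP EV. It fell in resistant and rose in persister cells, a difference of -2.22 (SE 0.21, adjusted p = 2.02e-05). TRAF1 and CFLAR were the others that were lower, TRAF1 in a call lost without Resistant OC 1 or 2, Resistant EV 1 or 2, DTP OC 1 or 3, or DTP EV 2 or 3. The subunits NFKB1 (-0.093, adjusted p = 0.545), RELA (0.24, adjusted p = 0.0598) and RELB (0.11, adjusted p = 0.625) were not called.

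Part of the interferon-induced genes were lower in response in resistant cells. Of 42 tested, 17 (40.5%) were lower and none higher, against 13.4% and 13.6% of all genes. The median difference was -0.41. In resistant cells 14 fell (9 without Resistant OC 3, Resistant EV 1 or Resistant EV 3) and 1 rose. Of all genes, 18.1% fell and 15.8% rose there. In persister cells 6 rose and 5 fell, or 9 and 11 without DTP EV 1. The median persister response was 0.17, and 0.01 without DTP EV 1. Without DTP EV 1 the difference was lower for 16 and higher for 7, among the higher STAT2 (0.60, adjusted p = 2.6e-05), TRIM22 (0.71, adjusted p = 7.99e-05) and IFI27 (0.57, adjusted p = 0.0115). IFIT1, which binds foreign RNA at its end, had scaled counts of 127747, 121812 and 122840.0 in Resistant OC, against 151782, 148902 and 156414 in Resistant EV, and 1232, 1307 and 1894 in DTP OC, against 682, 896 and 727 in DTP EV. The levels in the resistant state were far above those in the persister state in both vectors. Its responses were -0.30 (adjusted p = 0.107) in resistant and 0.93 (adjusted p = 0.00179) in persister cells, and the difference was -1.22 (SE 0.19, adjusted p = 0.000519). IFI6, an ER membrane protein that blocks viral replication, had 33886, 36393 and 37566 in Resistant OC, against 51685, 51537 and 52089.6 in Resistant EV, and 2144, 2213 and 2518 in DTP OC, against 2040.1, 1992 and 1447 in DTP EV. Its difference was -0.87 (SE 0.15, adjusted p = 0.0012). IFI16, a DNA sensor, differed by -0.69 (SE 0.10, adjusted p = 0.000442), HERC5, the ligase of ISG15, by -0.90 (SE 0.17, adjusted p = 0.00192), and ISG15 itself by -0.68 (SE 0.17, adjusted p = 0.012). STAT2 and IRF9, factors that drive these genes, were not called: STAT2 was at 0.38 (adjusted p = 0.151) and IRF9 at 0.25 (adjusted p = 0.622). Of 19 antigen presentation genes tested, 4 were lower in response in resistant cells and none higher (1 higher without DTP EV 1). That is 21.1% of the list, against 27.0% of all genes called and 13.4% called lower. Among the 4 were ERAP1, which trims peptides, at -0.60 (SE 0.083, adjusted p = 0.000243), NLRC5, the activator of class I genes, at -0.40, and TAP2, a peptide transporter subunit, at -0.31. In resistant cells 13 of the 19 antigen presentation genes fell and none rose, with or without DTP EV 1. Of all genes tested, 18.1% fell there with all libraries. The list's median response was -0.33 in resistant and -0.18 in persister cells.

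The promoters of IFIT1 and IFI6 are shown for the interferon-stimulated response element (ISRE, searched as TTTC, any 2 bases, then TTTC, on both strands), with matches in capitals. Each gives the 200 bases before the start from RefSeq on GRCh38.p14, IFIT1 on the plus strand at chr10:89392423-89392622 and IFI6 on the minus strand at chr1:27672193-27672392.
IFIT1: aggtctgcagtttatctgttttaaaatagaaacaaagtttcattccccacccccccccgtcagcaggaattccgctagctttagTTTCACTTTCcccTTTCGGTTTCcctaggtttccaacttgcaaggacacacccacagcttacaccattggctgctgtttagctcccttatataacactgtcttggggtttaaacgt
IFI6: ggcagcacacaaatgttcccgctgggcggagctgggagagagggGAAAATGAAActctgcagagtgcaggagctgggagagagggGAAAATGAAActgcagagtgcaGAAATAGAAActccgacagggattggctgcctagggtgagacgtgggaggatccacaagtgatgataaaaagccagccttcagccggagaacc
The element was found in 19 of 32 matched promoters of the list (59.4%), against 3.07% of all promoters.

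Most epithelial adhesion genes fell in persister cells, and few fell in resistant cells. Of 29 tested, 18 were higher in response in resistant cells (62.1%, against 13.6% of all genes). Only 1, CLDN1, was lower (3.45%, against 13.4%), or 2 without Resistant OC 1 or DTP EV 3. The median difference was 0.61. In persister cells 20 fell and none rose, with a median of -0.53, and 26 fell without DTP EV 1 but 12 without DTP OC 3. In resistant cells 7 rose and 4 fell, with a median of 0.13; without DTP EV 1 the higher count was 13. ELF3, an epithelial transcription factor, had scaled counts of 53097, 56893 and 57781 in Resistant OC, against 43149, 43689 and 41266 in Resistant EV, and 17785, 18272 and 16531 in DTP OC, against 24383, 24922 and 25760.2 in DTP EV. It was higher in Resistant OC and lower in DTP OC, without overlap within either state, and its difference was 0.90 (SE 0.083, adjusted p = 1.5e-05). TJP3, a tight junction scaffold, had 5606 ± 304 in Resistant OC, against 4083 ± 53.6 in Resistant EV, and 1112 ± 122 in DTP OC, against 1929 ± 236 in DTP EV (mean ± SD, n = 3 each), a difference of 1.25 (SE 0.13, adjusted p = 3.47e-05). PKP3, a desmosome protein, differed by 0.95 (SE 0.12, adjusted p = 0.000152). CDH1, E-cadherin, had 28885, 28151 and 28057 in Resistant OC, against 29621, 28248 and 29147 in Resistant EV, and 18434, 20398 and 18364 in DTP OC, against 23767, 34927 and 35615 in DTP EV. The resistant groups overlapped and DTP OC lay below DTP EV, with DTP EV 1 the lowest of its group; the difference was 0.67 (SE 0.17, adjusted p = 0.0102). EPCAM, another adhesion molecule, differed by 0.45 (SE 0.11, adjusted p = 0.00934) and ST14, a membrane protease, by 0.81 (SE 0.17, adjusted p = 0.00328).

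Mesenchymal and matrix genes were more often lower than higher in response in resistant cells. Of 37 tested, 15 were lower (40.5%, against 13.4% of all genes) and 7 higher (18.9%, against 13.6%). The median difference was -0.33. The median response was 0.02 in resistant and 0.52 in persister cells. TNC, the matrix protein tenascin-C, had scaled counts of 296, 356 and 344 in Resistant OC, against 966, 919 and 949 in Resistant EV, and 14549, 15230.4 and 17116 in DTP OC, against 13152, 7006 and 7494 in DTP EV. It fell in resistant and rose in persister cells (a persister call lost without DTP OC 3 or DTP EV 3), a difference of -2.33 (SE 0.25, adjusted p = 4.01e-05). TAGLN, an actin-binding protein of contractile cells, differed by -2.51 (SE 0.33, adjusted p = 0.000185), ZEB1, a repressor of epithelial genes, by -1.86 (SE 0.52, adjusted p = 0.0174) and CDH2, N-cadherin, by -1.28 (SE 0.38, adjusted p = 0.0223). The CDH2 call was lost without Resistant EV 1, Resistant EV 3 or DTP OC 3. The 7 higher included INHBA, a subunit of activin, at 1.29 (SE 0.16, adjusted p = 0.000129), ITGB6, an integrin chain of epithelia, at 1.04 (SE 0.12, adjusted p = 6.9e-05), FN1, fibronectin, at 0.98 (SE 0.19, adjusted p = 0.00243) and LAMB3, a laminin chain, at 0.86 (SE 0.17, adjusted p = 0.00272). VIM, vimentin, was called in neither state: its responses were 0.80 (adjusted p = 0.677) and 0.97 (adjusted p = 0.682).

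**Figure D4:**
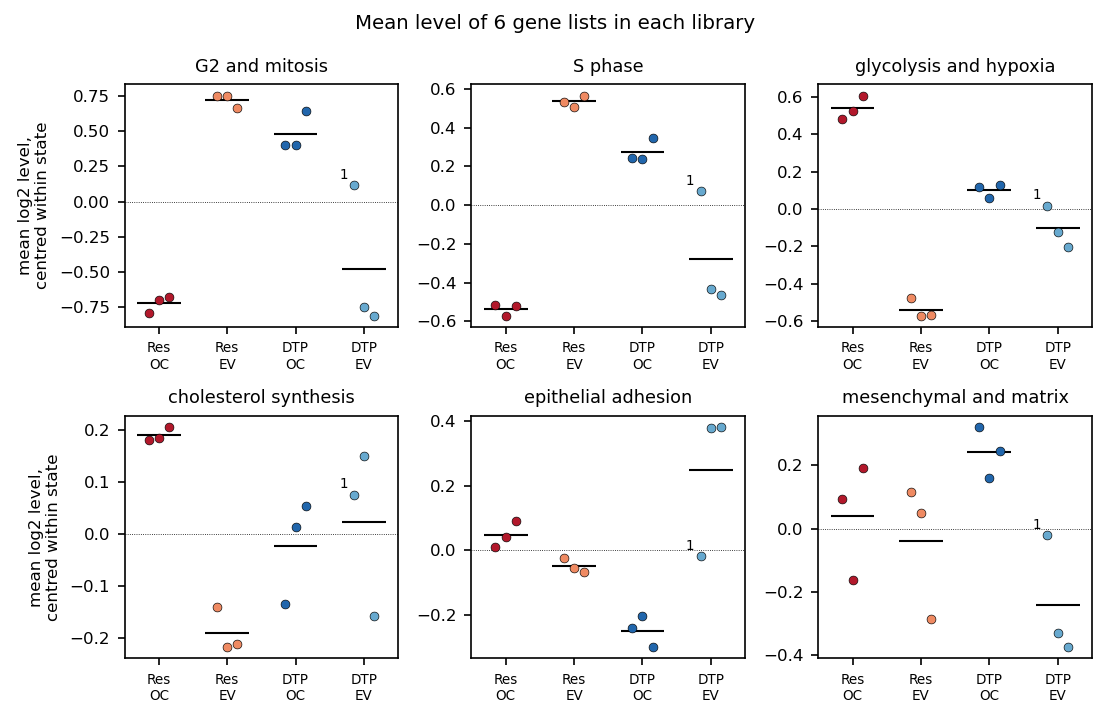
Mean log2 level of 6 gene lists in each library, centred within its state, for Resistant OC, Resistant EV, DTP OC and DTP EV, with DTP EV 1 marked "1". For the mitotic and S phase lists DTP EV 1 lies between the other DTP EV libraries and the DTP OC libraries.

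Targets of YAP and TEAD, the growth-control factors of the Hippo pathway, were called in part. Of 23 tested, 9 were lower in response in resistant cells (39.1%, against 13.4% of all genes) and 12 were not called. The other called genes, AMOTL2 and ARHGEF17, were higher, and 1 higher gene was left without Resistant OC 2 or 3, Resistant EV 1 or 3, DTP OC 1, 2 or 3, or DTP EV 3, against 4 without DTP EV 1. CTGF, a matricellular protein, had scaled counts of 238, 178 and 218 in Resistant OC, against 551, 628 and 601 in Resistant EV, and 2012, 1471 and 1444 in DTP OC, against 1826, 1366 and 1239 in DTP EV. It fell 2.81-fold in Resistant OC, the persister groups overlapped, and the difference was -1.65 (SE 0.23, adjusted p = 0.00027). FJX1, a Golgi kinase, differed by -1.87 (SE 0.26, adjusted p = 0.000275), CRIM1, a membrane protein that binds bone morphogenetic proteins, by -0.83 (SE 0.10, adjusted p = 7.31e-05) and TEAD1 by -0.65 (SE 0.11, adjusted p = 0.00105). CYR61, a relative of CTGF, was at -0.20 (adjusted p = 0.223).

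Of 27 outputs of EGFR signalling through ERK tested, 4 were lower and 2 higher in response in resistant cells (22.2%, near the 27.0% of all genes), and 8 were lower without DTP EV 1. In persister cells 8 rose and none fell. The 8 became 15 without DTP EV 1, 5 without Resistant OC 2, 4 without DTP OC 2, and 2 without DTP OC 1, DTP OC 3, DTP EV 2 or DTP EV 3. In resistant cells 9 rose and 6 fell (3 without Resistant OC 2 or Resistant EV 1). CCND1, cyclin D1, had 2917 ± 82.7 in Resistant OC, against 3070.0 ± 113 in Resistant EV, and 10074 ± 303 in DTP OC, against 7021 ± 1565 in DTP EV (mean ± SD, n = 3 each), a difference of -0.62 (SE 0.16, adjusted p = 0.0113). DUSP5, a phosphatase of ERK, differed by -0.99 (SE 0.21, adjusted p = 0.0043) and EREG, an EGFR ligand, by -0.96 (SE 0.25, adjusted p = 0.013). HBEGF, another EGFR ligand, was higher at 0.92 (SE 0.22, adjusted p = 0.00749), as was IER3, an early response gene, at 0.95 (SE 0.25, adjusted p = 0.0126). FOSL1, an AP-1 subunit, rose in both states by 1.36 and 1.18, the persister call being lost without any of the DTP OC libraries, DTP EV 2 or DTP EV 3, with a difference of 0.18 (adjusted p = 0.807). Of 21 immediate early genes tested, 4 were higher (SGK1, ZFP36, DUSP1 and KLF10) and 2 lower, a share of 28.6% against 27.0% of all genes. The lower ones were BTG2 and KLF6, and 1 of them was left without DTP OC 1, DTP OC 2 or any of the resistant libraries, against 4 lower without DTP EV 1.

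Receptor genes differed in response by member, with 25% of those tested higher and 25% lower in resistant cells. Over all genes the shares were 13.6% and 13.4%. Of 16 tested, 4 were higher in response in resistant cells: ERBB2 at 0.74 (SE 0.13, adjusted p = 0.00141), ERBB3 at 0.62, the collagen receptor DDR1 at 1.00 (SE 0.11, adjusted p = 4.01e-05) and the MST1 receptor MST1R at 0.48. Another 4 were lower: EGFR, the driver of this line, at -0.43 (SE 0.082, adjusted p = 0.00213), MET at -0.49, FGFR1 at -1.58 and GAS6, the ligand of AXL, at -0.70; 2 lower calls were left when any library other than DTP EV 1 was left out. EGFR had scaled counts of 20333, 18915 and 18773 in Resistant OC, against 25152, 24779 and 25360.3 in Resistant EV, and 187938, 201459 and 196487 in DTP OC, against 187280.0, 189672 and 189045 in DTP EV. Resistant OC lay below Resistant EV, and the persister groups overlapped. The level of EGFR was far lower in the resistant than in the persister state in both vectors.

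The most negative differences, after that of AL355312.5, included those of CKAP2L and DTL. CKAP2L, a spindle protein, differed by -5.02 (SE 1.13, adjusted p = 0.00559), DTL, which marks the licensing factor CDT1 for degradation, by -4.61 (SE 0.36, adjusted p = 4.29e-06), SHCBP1 by -4.42 (SE 0.42, adjusted p = 1.74e-05), FAM111B by -4.31 (SE 0.24, adjusted p = 7.31e-07), MYBL2, a transcription factor of the cell cycle, by -4.26 (SE 0.29, adjusted p = 2.52e-06) and ZNF367 by -4.09 (SE 0.32, adjusted p = 4.23e-06). DTL had scaled counts of 21.5, 10.3 and 16.6 in Resistant OC, against 187, 206 and 230.3 in Resistant EV, and 1209.5, 1279 and 1365 in DTP OC, against 958, 573 and 528 in DTP EV. Its resistant groups lay wholly apart. Secreted and matrix proteins were also among them: TIMP3, an inhibitor of metalloproteinases, differed by -4.13 (SE 0.65, adjusted p = 0.000565), MATN3, a cartilage matrix protein, by -4.09 (SE 0.53, adjusted p = 0.000162) and SERPINB2, an inhibitor of plasminogen activators, by -4.33 (SE 1.08, adjusted p = 0.00987). TIMP3 had 17619.6, 17332 and 17523 in Resistant OC, against 72918, 72838 and 71916 in Resistant EV, and 125, 86.6 and 100.3 in DTP OC, against 72.8, 16.1 and 10.8 in DTP EV. Its levels in the resistant state were far above those in the persister state. The uncharacterised AL355312.5 stood at -5.58 (SE 1.86, adjusted p = 0.0409), and its call was lost when any of 8 libraries was left out (highest adjusted p 0.0997): Resistant OC 2 or 3, Resistant EV 1 or 2, DTP OC 2 or 3, or DTP EV 2 or 3.

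At the positive end stood AKAP2, SERPINA3, PPFIA4 and MAP1LC3C. AKAP2, a kinase anchor, had scaled counts of 1324, 1235 and 1196 in Resistant OC, against 58.8, 23.3 and 36.1 in Resistant EV, and 14098, 14348 and 15028 in DTP OC, against 13335, 12065 and 12423 in DTP EV, a difference of 4.85 (SE 0.31, adjusted p = 1.43e-06). On the count scale its difference had the opposite sign, as for 37 of the 3509 called genes (1.05%). AKAP2 shares its locus with the PALM2-AKAP2 readthrough, so its reads are uncertain. SERPINA3, a secreted protease inhibitor, had 185, 128 and 143 in Resistant OC, against 44.6, 1.16 and 5.82 in Resistant EV, and 724, 599.5 and 703 in DTP OC, against 484, 856 and 1219 in DTP EV. Its Resistant EV libraries were all below those of Resistant OC and spread widely, and the difference was 4.35 (SE 1.08, adjusted p = 0.00956). CEACAM5, carcinoembryonic antigen, had 1995, 1857 and 1869 in Resistant OC, against 584, 501 and 614 in Resistant EV, and 1387, 1735 and 1494 in DTP OC, against 1252, 4687 and 4287 in DTP EV. It was higher in Resistant OC than in Resistant EV without overlap, and the DTP EV libraries spread widely; the difference was 2.69 (SE 0.50, adjusted p = 0.00169). CYP26A1, which degrades retinoic acid, differed by 2.53 (SE 0.27, adjusted p = 3.75e-05), PPFIA4, a liprin, by 3.36 (SE 0.60, adjusted p = 0.00132), MAP1LC3C, an autophagy protein of the LC3 family, by 3.31 (SE 0.66, adjusted p = 0.00268) and MFSD4A, a transporter, by 2.50 (SE 0.49, adjusted p = 0.00233). FSCN2, LDLRAD1, AC093323.1, CHI3L2 and FAXDC2 had differences between 2.26 (FAXDC2) and 2.37 (FSCN2).

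Among the genes that rose in resistant and fell in persister cells, TRIM31, a ubiquitin ligase, had 9364, 9669.8 and 9058 in Resistant OC, against 4469.8, 4481 and 4466 in Resistant EV, and 1672, 1986 and 1682 in DTP OC, against 3235, 3381 and 3208 in DTP EV. The groups did not overlap within either state, and the difference was 1.95 (SE 0.094, adjusted p = 1.43e-07). PTPRH, a receptor phosphatase, differed by 1.89 (SE 0.14, adjusted p = 3.16e-06), VTCN1, the immune checkpoint ligand B7-H4, by 1.88 (SE 0.23, adjusted p = 9.18e-05) and TMPRSS4, a membrane protease, by 1.88 (SE 0.30, adjusted p = 0.000649). The fall of TMPRSS4 in persister cells had an adjusted p of 0.0439 and was lost when any library other than DTP EV 1 was left out (highest adjusted p 0.209).

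Some genes answered cATF6 alike in direction. AXL, a receptor linked to drug tolerance, had scaled counts of 374, 372 and 428 in Resistant OC, against 157, 152 and 177 in Resistant EV, and 1077, 953 and 929 in DTP OC, against 477, 286 and 303 in DTP EV. It rose by 1.27 in resistant and 1.51 in persister cells, with a difference of -0.24 (SE 0.24, adjusted p = 0.508). SERPINE2, a secreted protease inhibitor, had responses of 1.64 and 1.67 and a difference of -0.035 (SE 0.49, adjusted p = 0.967) with all libraries, and -0.64 (adjusted p = 0.00128) without DTP EV 1. LGALS1, galectin-1, differed by 0.74 (SE 0.39, adjusted p = 0.184) and EMP3, a membrane protein, by 0.22 (SE 0.38, adjusted p = 0.717). A call that was not made does not show equal responses, and the standard errors of these 4 genes leave room for differences of that size.

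Redox, lysosome and heat shock genes differed in response in part. Of 28 NRF2 and redox genes, 9 were higher and 1 lower in response in resistant cells (35.7% called, against 27.0% of all genes tested), and 12 were lower without DTP EV 1 (2 without Resistant OC 1, Resistant OC 2 or Resistant EV 2). FTH1, the ferritin heavy chain, differed by 1.01 (SE 0.11, adjusted p = 5.9e-05), PGD, of the pentose phosphate path, by 0.81 (SE 0.075, adjusted p = 1.63e-05) and GCLC, the first enzyme of glutathione synthesis, by -0.86 (SE 0.088, adjusted p = 2.84e-05). Of 38 lysosome and autophagy genes, 7 were higher (4 without Resistant OC 3, Resistant EV 2 or DTP OC 2) and 5 lower, a share of 31.6% that is near the 27.0% of all genes; NEU1, a sialidase, differed by 0.72 (SE 0.10, adjusted p = 0.00026), NPC2, a cholesterol carrier, by -0.78 (SE 0.095, adjusted p = 0.0001) and GABARAPL1, an autophagy protein, by -0.62 (SE 0.10, adjusted p = 0.00059). Of 20 heat shock genes of the cytosol and the mitochondria, 8 were lower (5 without DTP OC 1 or DTP OC 3) and 2 higher (1 without DTP OC 3), together 50% of the list, with HSPE1, a mitochondrial co-chaperonin, at -0.84 (SE 0.17, adjusted p = 0.00328), HSPA8, the constitutive chaperone, at -0.35 (SE 0.072, adjusted p = 0.0032) and DNAJA1, its partner, at -0.29 (SE 0.064, adjusted p = 0.00541). Of 10 genes around TXNIP, 3 were higher and none lower (1 lower without Resistant OC 3): MLX, KLF10 and ARRDC1. That share of 30% is near the 27.0% of all genes.

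Among 16 BCL2 family genes, 3 were higher and 3 lower in response in resistant cells (37.5% called, against 27.0% of all genes). BMF, which promotes apoptosis, differed by 1.09 (SE 0.12, adjusted p = 4.04e-05), BAK1, an executioner, by 0.48 (SE 0.14, adjusted p = 0.022) and PMAIP1, the p53-induced NOXA, by -0.68 (SE 0.17, adjusted p = 0.00967). Only 1 higher call was left without Resistant OC 3, Resistant EV 3 or DTP OC 2. The lower calls came to 1 without Resistant OC 1 or 2, Resistant EV 1 or 2, DTP OC 3, DTP EV 2 or DTP EV 3. BCL2 itself had the most negative difference at -2.87 (SE 0.90, adjusted p = 0.0311), a call lost when any of 8 libraries was left out (highest adjusted p 0.0736): Resistant OC 1 or 2, Resistant EV 1 or 2, DTP OC 1 or 3, or DTP EV 2 or 3.

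Respiration and translation genes held few called differences of response between the states, where 27.0% of all genes tested were called. Of 28 nuclear genes of oxidative phosphorylation, 1 was called, NDUFA9 of complex I at -0.42 (SE 0.10, adjusted p = 0.00955) (5 were called without DTP EV 1, 3 when DTP EV 2 was left out and 2 when Resistant OC 3, Resistant EV 1 or DTP OC 2 was). Of 13 genes of the mitochondrial genome, 2 were lower, MT-ND1 at -0.39 (SE 0.12, adjusted p = 0.0251) and MT-ATP6 at -0.51 (SE 0.16, adjusted p = 0.0332). That count was 7 without DTP EV 1 and 6 without DTP EV 3, 1 without Resistant OC 1 or 2, and 0 without Resistant OC 3, Resistant EV 1, Resistant EV 3, DTP OC 1 or DTP EV 2. Of 67 ribosomal protein genes, RPL5 alone was lower, at -0.27 (SE 0.09, adjusted p = 0.0417), a call lost without any of the resistant libraries, DTP OC 1 or 3, or DTP EV 2 or 3. Without DTP EV 1, 8 ribosomal protein genes were lower, and 3 without DTP OC 2. In resistant cells 30 of the 67 ribosomal protein genes rose with cATF6 and none fell, with a median response of 0.23. The median in persister cells was 0.16, where 1 rose, or 31 without DTP EV 1, and none fell. Pseudogenes of these genes can share their reads. The endothelial markers CDH5 and PECAM1 differed by 1.85 (SE 0.33, adjusted p = 0.00128) and 1.88 (SE 0.45, adjusted p = 0.00813) from low levels.

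**Figure D5:**
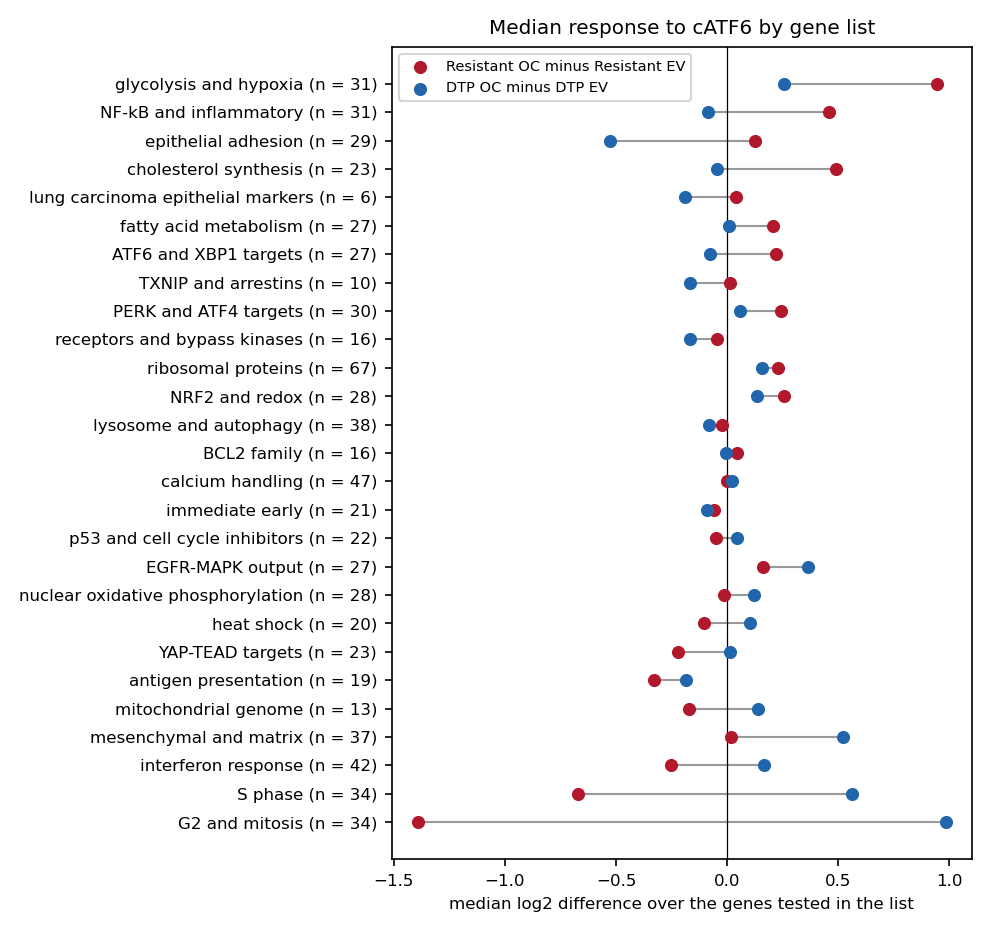
Median response to cATF6 (log2, OC minus EV; x axis) of the tested members of 27 gene lists in resistant (red) and persister (blue) cells. Of the lists drawn, G2 and mitosis has the medians farthest apart (-1.39 in resistant, 0.98 in persister cells), followed by S phase, and the resistant median is the higher for glycolysis and hypoxia (0.94 against 0.26).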

How the data were processed

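The authors deposited a table of log10(count + 1) per gene, and the submitters' processing notes name FastQC, MultiQC, STAR, featureCounts and hg19, with the strand setting of counting not given in the sources used here. Undoing the log10 gave whole numbers for 100% of values (tolerance 1e-06). These were scaled by trimmed mean of M-values (TMM) factors (trims 0.3 and 0.05) to the geometric mean of the effective library sizes, giving scaled counts. Because the deposited unit is log10 and not counts, log2(scaled count + 1) was fitted with limma 3.58.1 (R 4.3.3), with a mean-variance trend, over the 12 libraries (8 residual degrees of freedom), and p-values were adjusted by Benjamini-Hochberg over 12984 genes. SE is limma's moderated standard error, and SD is over 3 libraries.

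Left out were 2557 lines of unannotated genes (0.734 to 1.54% of a library's counts) and 15 symbols repeated on 4 lines each. Another 12 per-sample columns were not used. A few named members are not reported here. Samples were grouped by the labels. Gene lists and members were chosen with earlier results of these data known, so no p is given over a list. The rule for named genes took, among genes called with a mean of at least 100 scaled counts in a group of each state, the 12 widest differences in each direction and the 6 widest of each sign with opposite responses; up to 3 called genes with the smallest p in each list; ATF6, HSPA5, ATP2A2 and ITPR1; and 5 genes called the same way in both states. Other members of the lists are named for their role, after their values were seen. Promoters came from RefSeq (GRCh38.p14): 10219 of 12984 genes were matched by symbol, and the motif searches for CHR, E2F, CCAAT and the hypoxia core were chosen after seeing the data. The fit was tested on simulated data. The alternatives tried were other scalings, filters, pseudocounts and weights, a replicate block, a fit with the parental libraries, and leaving out each library. Precision is limited by 3 libraries a group. Summed over genes, counts within a group spread beyond sampling noise (chi-square per degree of freedom between 8.31 and 56.7). Such a sum cannot speak for genes with few counts, and the part of depth in their precision was not tested.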

Additional observations from a re-analysis of the deposited data

Results flagged for a closer look

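The difference in response between resistant and persister cells was called for 3509 genes by limma's test of the difference itself, which is what drew attention here. Of these, 1763 were higher and 1746 lower in response in resistant cells. ATF6 was among them, with a difference of 1.31 on the log2 scale between the rise in Resistant OC over Resistant EV and the rise in DTP OC over DTP EV. The construct's own gene therefore rose more in resistant than in persister cells. Whether its level has a part in the other differences was not tested. With 3 libraries a group, no gene was tested for a single distant value; the library DTP EV 1, which stood apart from its group over all genes, is described with the results.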

How the results depend on the processing

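The number of genes whose response differed was 3509 and lay between 2711 and 4506 when each of the 12 libraries was left out in turn, and between 3189 and 4548 under the other alternatives. No gene called both here and under an alternative changed sign. The count for resistant cells, 4407, lay between 3429 and 5281 with a library left out. The count for persister cells, 1775, moved the most, between 416 and 3657 with a library left out; its higher share was 36.1% without DTP OC 3, against 45.5% with all. It was 1101 without the mean-variance trend and 2834 in the fit over 18 libraries that adds the parental ones. Leaving out libraries moved the ATF6 difference between 1.23 and 1.38, and quantile normalization gave 1.06. With the replicate block the counts were 3189 for the difference, 4082 for resistant and 1456 for persister cells. Deviations of same-numbered libraries from their group means correlated between -0.11 and 0.066. Differently numbered libraries were not compared, so these values cannot decide whether the replicate numbers pair the libraries. With voom weights the counts were 3493 for the difference, 4448 for resistant and 2039 for persister cells.

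Of 111 named genes, 106 were called, and for 6 of those some alternative ended the call, among them AL355312.5, BAK1, MT-ND1, MT-ATP6 and RPL5. Of the 25 alternatives, 12 left out a library. The SERPINE2 difference, not called with all libraries, turned to 0.088 without DTP OC 3, 0.29 without DTP EV 2 and 0.24 without DTP EV 3, and was -0.64 at its lowest, without DTP EV 1. That of EMP3 turned to -0.20 without DTP EV 1 and was 0.48 at its highest, without DTP EV 2; the cause was not tested. The design has 2 library series, 1 for each state, and no alternative separates them. At an unadjusted p of 0.05, 4975 genes differed.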

Other observations

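Genes measured in only 1 of the states stood outside the comparison of responses. A further 1157 genes passed the filter in persister cells alone, of which 18 rose and 7 fell with cATF6, and 401 of the 1157 were listed at 0 in all 6 resistant libraries. In resistant cells alone 729 genes passed, of which 34 rose and 51 fell, and 93 were listed at 0 in all 6 persister libraries. These counts come from 1 limma fit of all 12 libraries to the genes that passed the filter over those libraries, and the persister ones rest on a group in which DTP EV 1 stands apart. Over all 14937 genes of that fit, the persister response was called for 1553 (682 higher and 871 lower). The resistant response was called for 4456 (2065 higher and 2391 lower). The genes measured in only 1 state were thus called less often than all genes of the fit.

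The examples that follow were chosen after their values were seen. Among persister-only genes, CHIA, an acidic chitinase, had scaled counts of 903, 1187 and 1180.2 in DTP OC, against 1690.3, 3657 and 2830.4 in DTP EV, a response of -1.26 (SE 0.29, adjusted p = 0.0214). SFTA2, a surfactant-associated protein of the lung, had 374, 315 and 318 in DTP OC, against 526, 711 and 859 in DTP EV, a response of -1.03 (SE 0.28, adjusted p = 0.0394). BAAT, which conjugates bile acids, had 235, 284 and 249 in DTP OC, against 394, 979.7 and 825 in DTP EV, a response of -1.42 (SE 0.35, adjusted p = 0.0267). In each, DTP OC lay wholly below DTP EV and DTP EV 1 was the lowest of its group. RFTN1, a lipid raft protein, rose, with 309, 297 and 292 in DTP OC, against 208, 82.3 and 85.4 in DTP EV, a response of 1.39 (SE 0.39, adjusted p = 0.0425).

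Among resistant-only genes, CYP4Z1, a fatty acid hydroxylase, had 69.5, 55.2 and 62.8 in Resistant OC, against 556, 561 and 583 in Resistant EV, a response of -3.17 (SE 0.55, adjusted p = 0.00131). CLCA2, a membrane protein of stratified epithelia, had 38.9, 41.4 and 33.1 in Resistant OC, against 339.7, 273 and 295 in Resistant EV, a response of -2.97 (SE 0.28, adjusted p = 2.04e-05), and LOXL4, a lysyl oxidase, had 405, 472 and 508 in Resistant OC, against 2151, 1883 and 1981 in Resistant EV, a response of -2.12 (SE 0.35, adjusted p = 0.000931). All 3 fell without overlap of the groups. DUSP13, a phosphatase, had 181, 213 and 241 in Resistant OC, against 49.9, 50.02 and 31.4 in Resistant EV, a response of 2.27 (SE 0.36, adjusted p = 0.000719), and PLA2G2F, a secreted phospholipase, 728, 750.4 and 751 in Resistant OC, against 267, 239.6 and 278 in Resistant EV, a response of 1.51 (SE 0.41, adjusted p = 0.0158). Both rose. KRT6C, whose reads can be shared with the near-identical keratins KRT6A and KRT6B, had 131, 90.8 and 116 in Resistant OC, against 30.3, 23.3 and 25.6 in Resistant EV.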
